A study of Mus musculus with 6 samples.

Results

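The 10 genes Hspa5, Hsp90b1, Xbp1, Atf6, Ern1, Dnajb9, Herpud1, Pdia4, Sdf2l1 and Creld2, which belong to the unfolded protein response of the endoplasmic reticulum (ER), were followed through bulk RNA-seq of sorted mouse tumour cells. They were taken by gene symbol, and all 10 were found among the 57186 genes of the count table. The samples were CD45-negative cells, sorted from subcutaneous tumours of MB49, a mouse bladder carcinoma line of male origin. In the Y-KO group (3 libraries) the injected MB49 cells had been edited by CRISPR against the Y chromosome, and in the Y-Scr group (3 libraries) they carried the scrambled CRISPR control. The hosts were C57Bl/6J mice, the harvest was at a tumour size of 500 mm3 and every library has the same batch label. The labels give neither the age or sex of the hosts nor the number of edited clones, and they do not say that replicates came from separate animals, so p-values reflect only how much the libraries vary, and that variation may be technical.

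The unfolded protein response adjusts the folding capacity of the ER to its load of secreted and membrane proteins. Ern1 (Ire1), Atf6 and Eif2ak3 (Perk) encode sensors in the ER membrane. Ire1 cuts Xbp1 mRNA so that it yields an active transcription factor, Atf6 is itself released by proteolysis to become one, and Perk slows translation and favours synthesis of Atf4. The targets include chaperones such as Hspa5 (BiP) and proteins that return misfolded chains to the cytosol for degradation. Cells that secrete much protein, plasma cells above all, are known for high levels of these transcripts, and solid tumour cells often depend on them.

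Total counts ran from 42040955 to 52951031 per library, and the fewest counts for any of the 10 genes in any library was 1454. The summed level of the Y-linked Kdm5d, Uty, Ddx3y and Eif2s3y was 20.4 to 47.3 CPM (counts scaled to library size with TMM) in Y-KO and 296 to 344 CPM in Y-Scr, in the direction of the labels. Y-KO replicate 3 stood apart: over 9858 genes with a mean of at least 10 CPM, the SD of the log2 difference was 0.46 and 0.47 between it and Y-KO replicates 1 and 2, against 0.18 between those. The Y-Scr libraries differed from each other by 0.13 to 0.20 on that measure, replicates 2 and 3 least. CD45 itself (Ptprc) was not absent from the sorted cells, at 134 to 298 CPM in Y-KO tumours and 521 to 601 CPM in Y-Scr. The summed level of 12 epithelial markers was 3277 to 3468 CPM in Y-KO tumours and 2408 to 2736 CPM in Y-Scr, most of it from the keratin genes Krt8 and Krt18. Of the 8 that were tested, Krt8, Krt14, Krt18 and Krt19 were higher in Y-KO, and Epcam was lower at 0.908 to 1.22 CPM in Y-KO and 3.07 to 4.62 CPM in Y-Scr (edgeR adjusted p = 0.00586). Of the 3 that did not pass, Cdh1 and Krt5 were lower in every Y-KO library than in every Y-Scr library (log2 fold changes -0.67 and -2.25, edgeR adjusted p = 0.142 and 0.0626), and the groups overlapped for Krt7. Among all tested genes, 7.82% were higher and 8.27% lower in Y-KO. The uroplakin genes Upk2 and Upk3a had no counts in any library.

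None of the 10 ER stress genes differed between Y-KO and Y-Scr tumours at an adjusted p under 0.05 (edgeR quasi-likelihood test, Benjamini-Hochberg over 17837 genes), whereas 16.1% of all tested genes did. DESeq2 also called none of them, against 21.5% of all genes. At an unadjusted p under 0.05 there were 2, Atf6 and Pdia4, against 30.7% of all genes. The log2 fold changes of Y-KO over Y-Scr ran from -0.13 to 0.49 with a median of 0.11, beside a median of -0.03 over all tested genes, and 7 of 10 were above 0. Summed over the 10 genes, the level was 2755, 2656 and 2420 CPM in Y-KO replicates 1, 2 and 3, and 2372, 2403 and 2400 CPM in the Y-Scr libraries. A p that misses the threshold does not show that levels were alike, so the 95% interval of each difference is given below. In bulk RNA, fewer cells of a type and less RNA per cell cannot be told apart.

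**Figure D1:**
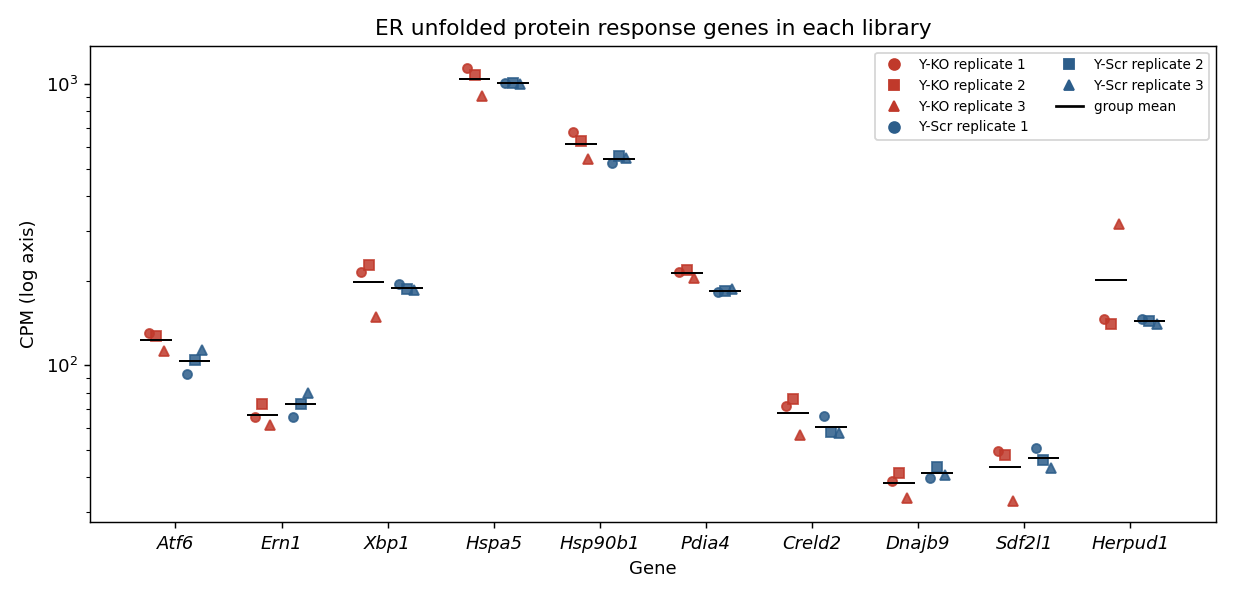
CPM on a log axis for each of the 10 genes, with Y-KO libraries in red to the left of Y-Scr libraries in blue, a marker shape per replicate and a black bar at each group mean. The groups overlap for every gene except Pdia4, and the triangle of Y-KO replicate 3 lies below the other Y-KO libraries for 9 genes and above them for Herpud1.

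Several of the 10 genes carry known stress elements just before their start. In the 250 bases upstream of the start, the ER stress element, CCAAT and CCACG with 9 bases of any kind between them, was searched on both strands in the RefSeq promoter table (GRCm38.p6, a build other than that of the counts). It was present in 0.113% of 32851 promoters and in those of Hspa5, Hsp90b1 and Creld2, with 9 of the 10 genes in the table and Atf6 without an entry. The shorter ER stress element II, ATTGG and CCACG with 1 base of any kind between them, was in 0.0304% of promoters and in that of Herpud1, and the element TGACGTGG was in 0.563% and in none of these genes. The stretches of Hspa5, Hsp90b1 and Creld2 are shown because these genes carry the classical element. Herpud1 was added to them after its values were seen, since it differed most in its pattern. Capitals mark the elements, each line runs along the gene's own strand, and no line reaches past the start.
Hspa5, chr2:34771985-34772083 (+): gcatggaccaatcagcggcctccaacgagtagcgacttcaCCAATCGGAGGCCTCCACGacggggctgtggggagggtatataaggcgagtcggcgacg
Hsp90b1, chr10:86705493-86705694 (-): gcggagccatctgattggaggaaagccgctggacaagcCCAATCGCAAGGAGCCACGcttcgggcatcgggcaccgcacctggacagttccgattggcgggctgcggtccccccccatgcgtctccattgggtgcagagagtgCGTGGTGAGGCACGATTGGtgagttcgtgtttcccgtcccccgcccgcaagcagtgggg
Creld2, chr15:88819480-88819578 (+): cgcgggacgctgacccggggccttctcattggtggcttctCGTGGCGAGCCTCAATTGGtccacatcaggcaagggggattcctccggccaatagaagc
Herpud1, chr8:94386337-94386427 (+): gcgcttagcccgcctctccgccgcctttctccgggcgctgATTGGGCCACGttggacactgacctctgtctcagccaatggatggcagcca
In Hspa5 the element ended 47 bases before the start, and in Creld2, on the opposite strand, 108 bases before it. Hsp90b1 held the element in both orientations. A match is a description of the letters and not evidence of binding. Leaving out these 3 genes, 19 tested genes had the ER stress element in their promoter, of which 3 rose, 2 fell and 14 did not pass (edgeR), where 7.82% of all tested genes were higher and 8.27% lower. Their median log2 fold change was 0.09. The 3 that rose were the lectin chaperone gene Canx, the degradation ligase gene Syvn1 and the disulfide isomerase gene Pdia6 (log2 fold changes 0.31, 0.36 and 0.25). Those that fell were Adcy3, an adenylate cyclase gene, and Tdrd9, a germline helicase gene (-1.21 and -1.39). Pdia6, Adcy3 and Tdrd9 were named after their values were seen. Dropping Y-KO replicate 1 or 2, or Y-Scr replicate 2 or 3, left none of the 3 called as higher (adjusted p of Pdia6 between 0.119 and 0.190), and dropping Y-Scr replicate 1 left Pdia6 alone. The Adcy3 call ended when Y-KO replicate 1 or Y-Scr replicate 1 or 2 was dropped (adjusted p between 0.0505 and 0.103). Without Y-KO replicate 3, 4 genes of this set were higher and 4 were lower, where 16.0% of all tested genes were higher and 17.7% lower.

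Among the sensors, Atf6 (chromosome 1, 170532243 to 170695340, GRCm39), whose product travels to the Golgi and is cut there into a transcription factor, stood at 130, 127 and 113 CPM in Y-KO tumours and 93.3, 104 and 114 CPM in Y-Scr. The highest Y-Scr library lay just above the lowest Y-KO library, so the groups touched. The log2 fold change was 0.25 (SE 0.10, 95% interval 0.02 to 0.49, edgeR adjusted p = 0.136). Ern1 (chromosome 11, 106285476 to 106378678), the kinase and RNase that cuts Xbp1 mRNA, stood at 65.5, 72.9 and 61.1 CPM in Y-KO tumours and 65.4, 72.9 and 79.9 CPM in Y-Scr. These ranges overlapped widely, with a log2 fold change of -0.13 (SE 0.11, 95% interval -0.38 to 0.12, edgeR adjusted p = 0.475). The third sensor gene, Eif2ak3, averaged 30.9 ± 3.26 CPM in Y-KO tumours and 33.5 ± 5.24 CPM in Y-Scr (SD, n = 3 each; log2 fold change -0.12, edgeR adjusted p = 0.639). Ern2, a relative of Ern1, had no counts in any library.

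Xbp1 (chromosome 11, 5470659 to 5475893), the transcription factor gene activated by Ire1, stood at 216, 227 and 149 CPM in Y-KO tumours and 195, 187 and 186 CPM in Y-Scr. Both the highest and the lowest value belonged to Y-KO, on either side of a narrow Y-Scr range. The log2 fold change was 0.06 (SE 0.15, 95% interval -0.28 to 0.40, edgeR adjusted p = 0.829). Gene counts add the spliced and unspliced forms of Xbp1 mRNA, so Ire1 activity is not measured here. Rtcb, the ligase that joins the cut ends of Xbp1 mRNA, rose to 172 ± 11.4 CPM in Y-KO, against 135 ± 2.36 CPM in Y-Scr (SD, n = 3 each), 1.27-fold more (log2 0.34, SE 0.08, edgeR adjusted p = 0.0244). Dropping Y-KO replicate 1 or 2, or Y-Scr replicate 2 or 3, ended the Rtcb call, with adjusted p between 0.0858 and 0.106.

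The ER chaperones and folding enzymes are the main output of the response. Hspa5 (chromosome 2, 34661982 to 34667559), which encodes BiP, the Hsp70 of the ER lumen and the protein that holds the sensors inactive, with the ER stress element near its start, stood at 1146, 1079 and 909.8 CPM in Y-KO tumours and 1007, 1011 and 1006 CPM in Y-Scr. The Y-Scr libraries were almost equal and lay inside the Y-KO range, and the log2 fold change was 0.05 (SE 0.09, 95% interval -0.15 to 0.25, edgeR adjusted p = 0.744). Hsp90b1 (chromosome 10, 86526073 to 86541373), encoding the Hsp90 of the ER, Grp94, and holding the element in both orientations, stood at 676, 626 and 543 CPM in Y-KO tumours and 526, 553 and 547 CPM in Y-Scr. Of the Y-KO libraries, replicate 3 alone fell within the Y-Scr range, and the log2 fold change was 0.18 (SE 0.09, 95% interval -0.02 to 0.39, edgeR adjusted p = 0.214). Of the exon bases of Hsp90b1, 15.7% are shared with other gene models on either strand, where reads would not have been counted for it.

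Pdia4 (chromosome 6, 47773075 to 47790364), a protein disulfide isomerase, was the 1 gene of the 10 whose groups did not overlap, a separation seen in 37.7% of all tested genes. It stood at 215, 218 and 204 CPM in Y-KO tumours and 183, 183 and 186 CPM in Y-Scr. The difference was 15.4% of the Y-Scr mean (log2 fold change 0.21, SE 0.07, 95% interval 0.04 to 0.37) and missed the threshold after adjustment (edgeR adjusted p = 0.0915). Creld2 (chromosome 15, 88703849 to 88710886), encoding another ER protein with disulfide isomerase activity, stood at 71.6, 75.7 and 56.4 CPM in Y-KO tumours and 65.8, 58.1 and 57.2 CPM in Y-Scr. Its highest values were Y-KO replicates 1 and 2 and its lowest was Y-KO replicate 3, with a log2 fold change of 0.17 (SE 0.13, 95% interval -0.12 to 0.46, edgeR adjusted p = 0.413).

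By mean level per kilobase of exon, the co-chaperone genes were the lowest of the luminal factors, though the ranges of Sdf2l1 and Creld2 overlapped in both groups. Dnajb9 (chromosome 12, 44252342 to 44257109), an ER Hsp40 that brings BiP to Ire1 and to misfolded proteins, stood at 38.8, 41.3 and 33.8 CPM in Y-KO tumours and 39.7, 43.6 and 40.7 CPM in Y-Scr. Sdf2l1 (chromosome 16, 16948002 to 16950247), a partner of ER Hsp40 proteins in the BiP cycle, stood at 49.7, 47.9 and 33.0 CPM in Y-KO tumours and 50.7, 46.0 and 43.3 CPM in Y-Scr. For both genes the Y-KO libraries other than replicate 3 lay close to or within the Y-Scr range. The log2 fold change was -0.12 for Dnajb9 (SE 0.11, 95% interval -0.36 to 0.12, edgeR adjusted p = 0.499) and -0.10 for Sdf2l1 (SE 0.16, 95% interval -0.46 to 0.26, edgeR adjusted p = 0.722).

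Herpud1 (chromosome 8, 95113066 to 95122005), which encodes an ER membrane protein of the degradation complex and whose promoter holds element II, differed from the other 9 genes in its outlying library. It stood at 146, 141 and 318 CPM in Y-KO tumours and 146, 144 and 140.4 CPM in Y-Scr. Y-KO replicate 3 was 2.22-fold above the mean of Y-KO replicates 1 and 2, while the other 5 libraries lay between 140.4 and 146 CPM. A log2 ratio of replicate 3 to replicates 1 and 2 at least as high as the 1.15 of Herpud1 was found in 1.68% of tested genes. The log2 fold change between the groups was 0.49 (SE 0.28, 95% interval -0.15 to 1.1303, edgeR adjusted p = 0.283) and -0.0039 without Y-KO replicate 3. With no filter on low counts, Herpud1 passed the edgeR test (adjusted p = 0.0439), in a fit that called 11.9% of genes, 5.24% as higher and 6.69% as lower, and its adjusted p ran from 0.0439 to 0.974 over the alternatives.

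**Figure D2:**
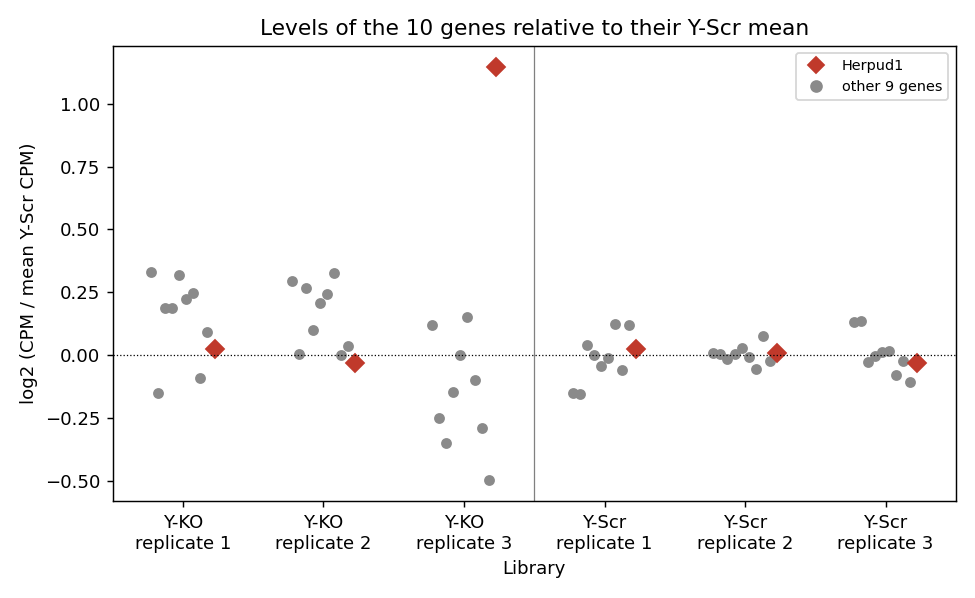
log2 of the CPM of each of the 10 genes over its mean Y-Scr CPM (vertical axis) in the 3 Y-KO libraries on the left and the 3 Y-Scr libraries on the right, with Herpud1 as red diamonds and the other 9 genes as grey circles. Herpud1 lies at the Y-Scr mean in all libraries except Y-KO replicate 3, where it reaches 318 CPM.

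For the other 9 genes Y-KO replicate 3 lay low. It was the lowest Y-KO library for 9 of 10 genes, as for 39.2% of all tested genes, and the lowest of all 6 libraries for 6 of 10, as for 21.1% of all tested genes. Relative to Y-KO replicates 1 and 2, its log2 level was lower by 0.57 for Xbp1 and 0.56 for Sdf2l1, but only by 0.08 for Pdia4. Without this library, 6 genes were higher in Y-KO, none was lower and 4 did not pass (edgeR), where 16.0% of all tested genes were higher, 17.7% were lower and 33.7% were called in either direction. The 6 were Hsp90b1 (log2 fold change 0.26, SE 0.06, adjusted p = 0.0018), Pdia4 (0.23, adjusted p = 0.00746), Atf6 (0.31, adjusted p = 0.00827), Xbp1 (0.23, adjusted p = 0.0106), Creld2 (0.29, adjusted p = 0.0190) and Hspa5 (0.14, adjusted p = 0.0366). The 4 that did not pass were Ern1, Dnajb9, Herpud1 and Sdf2l1. This fit compares the 2 Y-KO libraries closest to each other with the Y-Scr libraries, so its spread may be too small.

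**Figure D3:**
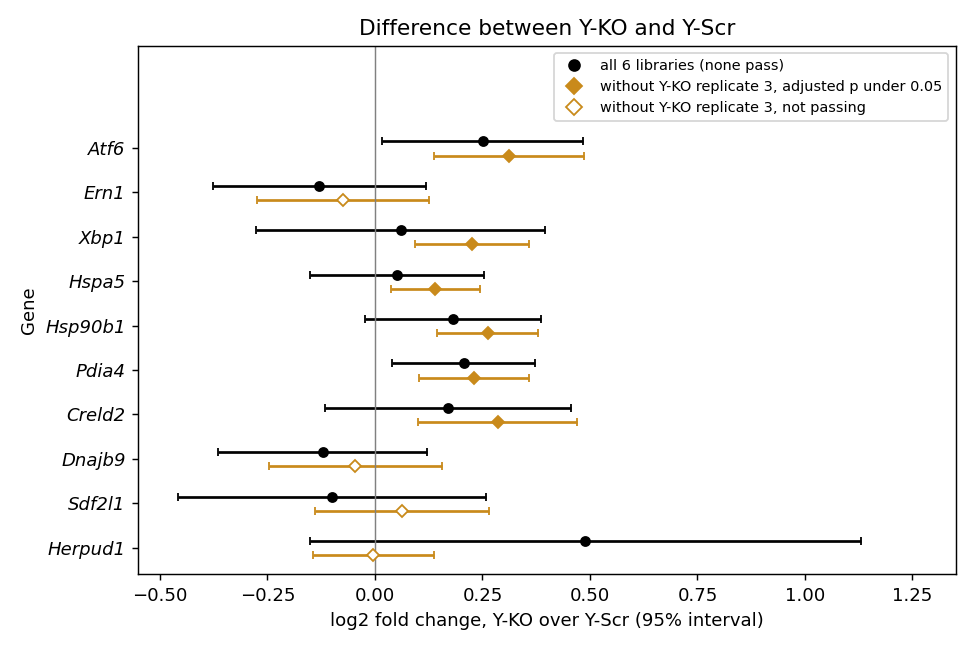
log2 fold change of Y-KO over Y-Scr with its 95% interval for each gene, from all 6 libraries (black circles) and without Y-KO replicate 3 (orange diamonds, filled where the adjusted p was under 0.05). No gene passed with all libraries, 6 passed without Y-KO replicate 3, and the Herpud1 estimate was 0.49 with that library and -0.0039 without it.

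Markers of other cells differed in the same libraries, where 7.82% of all tested genes were higher in Y-KO and 8.27% lower. The summed level of 10 pan-leukocyte markers, all detected, was 1260 to 2682 CPM in Y-KO, lowest in replicate 3, and 3451 to 3577 CPM in Y-Scr, and 5 of 10 were lower in Y-KO. The sum of 10 macrophage markers, all detected and 6 of them higher in Y-KO, was 775 CPM in Y-KO replicate 3 and 1513 to 1517 CPM in the other Y-KO libraries, against 811 to 883 CPM in Y-Scr. That of 11 fibroblast markers, all detected and 3 of them lower in Y-KO, was 699 CPM in Y-KO replicate 3 and 240 to 246 CPM in the other Y-KO libraries, against 1025 to 1088 CPM in Y-Scr. Dcn alone made up 423 CPM of the sum in Y-KO replicate 3, against 54.1 and 57.6 CPM in Y-KO replicates 1 and 2. Col1a1 stood at 75.2 CPM in Y-KO replicate 3 and 204 to 223 CPM in Y-Scr. Col1a2 was higher in every Y-KO library than in every Y-Scr library (edgeR adjusted p = 0.126). Of 13 B and plasma cell markers 11 were tested and 7 were lower in Y-KO, and their sum was 372 to 427 CPM in Y-KO tumours and 404 to 423 CPM in Y-Scr. Most of that sum was Sdc1, which epithelial cells also express and which was higher in every Y-KO library than in every Y-Scr library. The plasma cell gene Tnfrsf17 had no counts and Mzb1 reached at most 0.11 CPM. Ighm, in contrast, stood at 18.4 to 20.7 CPM in Y-KO and 71.0 to 79.3 CPM in Y-Scr (edgeR adjusted p = 2.15e-05). Jchain stood at 0 to 0.681 CPM in Y-KO and 0.804 to 1.53 CPM in Y-Scr (edgeR adjusted p = 0.207). The part of leukocytes, macrophages and fibroblasts in the levels above was not tested.

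Per kilobase of exon, the order of the mean levels was the same in both groups. On this RPKM scale Hspa5 led with 247 ± 28.8 in Y-KO and 238 ± 0.567 in Y-Scr (SD, n = 3 each), and Hsp90b1 followed with 153 ± 16.7 in Y-KO and 135 ± 3.51 in Y-Scr. After them came Pdia4 (88.5 ± 2.96 in Y-KO, 76.7 ± 0.782 in Y-Scr), Herpud1 (86.3 ± 43.2 in Y-KO, 61.5 ± 1.18 in Y-Scr), Xbp1 (60.7 ± 13.1 in Y-KO, 58.2 ± 1.46 in Y-Scr), Creld2 (49.7 ± 7.46 in Y-KO, 44.2 ± 3.45 in Y-Scr) and Sdf2l1 (39.3 ± 8.26 in Y-KO, 42.1 ± 3.401 in Y-Scr). The lowest were Dnajb9 (14.9 ± 1.4998 in Y-KO, 16.2 ± 0.797 in Y-Scr), Atf6 (13.4 ± 1.03 in Y-KO, 11.2 ± 1.1004 in Y-Scr) and Ern1 (8.13 ± 0.728 in Y-KO, 8.90 ± 0.893 in Y-Scr). Hspa5, Hsp90b1 and Pdia4 thus stood well above the sensor genes Atf6 and Ern1. In Y-KO the ranges of neighbours overlapped from Pdia4 down to Sdf2l1 and between Dnajb9 and Atf6, and in Y-Scr only those of Creld2 and Sdf2l1 did.

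The wider pathway was described through 5 further lists. Of 24 other ER chaperones and folding enzymes, all tested, 6 rose in Y-KO, none fell and 18 did not pass, where 7.82% of all tested genes were higher and 8.27% lower, and the list's median log2 fold change was 0.10. Ero1a, the oxidase that recharges disulfide isomerases, rose to 553 ± 62.8 CPM in Y-KO, against 357 ± 28.5 CPM in Y-Scr (SD, n = 3 each; log2 fold change 0.63, SE 0.10, edgeR adjusted p = 0.00524). Txndc5, another disulfide isomerase gene, Canx and Sdf2, the close relative of Sdf2l1, rose with log2 fold changes of 0.32, 0.31 and 0.46 (edgeR adjusted p = 0.0235, 0.0252 and 0.0253). Whether Sdf2 differed from Sdf2l1 in its change was not tested. The fit without Y-KO replicate 3 called 16.0% of all tested genes higher and 17.7% lower, and 11 genes of this list higher and 1 lower. The count of 6 was 1 without Y-KO replicate 1 or 2 or Y-Scr replicate 2 or 3. Of the named calls Ero1a was kept in every fit that left out a single library. Txndc5 and Sdf2 were lost in the 4 that gave a count of 1 (adjusted p from 0.0752 to 0.113 and from 0.0522 to 0.126), and Canx was lost also when Y-Scr replicate 1 was dropped (adjusted p between 0.0507 and 0.108). With library size alone as the scaling, 1 gene of the list was higher and 2 were lower.

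Of 21 genes of ER-associated degradation, the route on which Herpud1 acts, 3 rose, none fell and 18 did not pass (median log2 fold change 0.10). Among all tested genes, 7.82% were higher and 8.27% lower. Vcp, the ATPase that pulls proteins out of the ER membrane, rose to 412 ± 30.2 CPM in Y-KO, against 308 ± 10.2 CPM in Y-Scr (SD, n = 3 each; log2 fold change 0.42, SE 0.08, edgeR adjusted p = 0.0106), and its cofactor gene Nploc4 rose 1.32-fold (edgeR adjusted p = 0.0179). Syvn1, the ubiquitin ligase Hrd1, rose 1.28-fold (edgeR adjusted p = 0.0256), and its partner gene Sel1l did not pass (log2 fold change 0.27, edgeR adjusted p = 0.0958). All 3 calls ended when Y-Scr replicate 2 or 3 was dropped, at adjusted p of 0.0615 and 0.0634 for Vcp. Those of Nploc4 and Syvn1 were lost also without Y-KO replicate 1 or 2 (adjusted p from 0.0663 to 0.0928 for Nploc4), and that of Syvn1 by dropping Y-Scr replicate 1 too (its adjusted p between 0.0654 and 0.0997). Without Y-KO replicate 3, 7 genes of the list were higher, Sel1l among them (edgeR adjusted p = 0.0455), and 2 were lower. That fit called 16.0% of all tested genes higher and 17.7% lower. With library size alone 1 was higher and 1 was lower.

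Of 29 genes of ER translocation, glycosylation and export, 1 rose, 1 fell and 27 did not pass (median log2 fold change 0.13). Among all tested genes, 7.82% were higher and 8.27% lower. The retrieval receptor gene Kdelr1 rose to 146 ± 8.49 CPM in Y-KO, against 113 ± 8.99 CPM in Y-Scr (SD, n = 3 each; edgeR adjusted p = 0.0301). Sec11c, a catalytic subunit of the signal peptidase, fell to 72.6 ± 7.42 CPM in Y-KO, against 104 ± 8.22 CPM in Y-Scr (log2 fold change -0.52, SE 0.11, edgeR adjusted p = 0.0134). Dropping Y-KO replicate 1 or 2 or any 1 of the Y-Scr libraries ended the Kdelr1 call (adjusted p from 0.0545 to 0.132), and dropping Y-Scr replicate 1 or 2 ended that of Sec11c (adjusted p = 0.0580 and 0.0716). Kdelr2 and the coat gene Sec24d did not pass (log2 fold changes 0.23 and 0.27, edgeR adjusted p = 0.0937 and 0.0953), and without Y-KO replicate 3 both were among 13 genes higher (adjusted p = 0.00639 and 0.0182). Of 12 other sensors and transducers 11 were tested, 1 rose, Rtcb above, none fell and 10 did not pass (median log2 fold change -0.04). Atf6b, the relative of Atf6, Wfs1, an ER membrane protein gene, and Creb3, a relative of Atf6 in its activation by proteolysis, had log2 fold changes of 0.23, 0.30 and 0.12 (edgeR adjusted p = 0.0961, 0.123 and 0.458). Without Y-KO replicate 3, 3 genes of that list were higher and 3 lower, Atf6b and Wfs1 among the higher (edgeR adjusted p = 0.0352 and 0.0224). That fit called 16.0% of all tested genes higher and 17.7% lower.

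The list of the Perk-Atf4 arm had the highest median of the 5 lists, but gene counts do not measure Perk activity. Whether Perk had a part in these changes was not tested. Of the 15 genes of this list 14 were tested, of which 5 rose, none fell and 9 did not pass, with a median log2 fold change of 0.47. Among all tested genes, 7.82% were higher and 8.27% lower. Asns, which makes asparagine, stood at 208, 192 and 145 CPM in Y-KO tumours and 64.1, 56.6 and 59.7 CPM in Y-Scr (log2 fold change 1.59, SE 0.14, edgeR adjusted p = 0.000246). Trib3, a pseudokinase induced by Atf4, stood at 110, 103 and 86.2 CPM in Y-KO tumours and 40.5, 39.3 and 39.96 CPM in Y-Scr (log2 fold change 1.32, SE 0.11, edgeR adjusted p = 0.000189). For each of these genes the groups were far apart. Nupr1, a stress-induced chromatin protein gene, rose 1.87-fold and Atf5, a transcription factor gene translated under stress, 1.71-fold (edgeR adjusted p = 0.00584 and 0.00126), and the fifth was Atf4 itself, named after its values were seen, with 1.43-fold. The 4 calls other than that of Atf4 held without any single library. The count of 5 was 12 higher and 1 lower without Y-KO replicate 3, where 16.0% of all tested genes were higher and 17.7% lower. With the closest libraries of each group summed it was 2, Asns and Trib3. Ddit3, the stress-induced Chop gene, and the Perk gene Eif2ak3 from the sensor list, both picked for their known roles with their values already seen, did not pass (log2 fold changes 0.43 and -0.12). Whether the change of this arm differed from that of the 10 genes was not tested. Ddit4, also singled out afterwards, was highest in Y-KO replicate 3 like Herpud1, with 274, 269.5 and 1005 CPM in Y-KO tumours and 450.2, 441 and 433 CPM in Y-Scr. Unlike Herpud1, its Y-KO replicates 1 and 2 lay below every Y-Scr library. The list was mixed in that library. Cebpg was also highest there of all libraries, while Atf3 (60.7, 57.5 and 13.1 CPM in Y-KO), Slc7a11 (80.9, 78.6 and 19.8 CPM in Y-KO) and Ppp1r15a were lowest there.

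**Figure D4:**
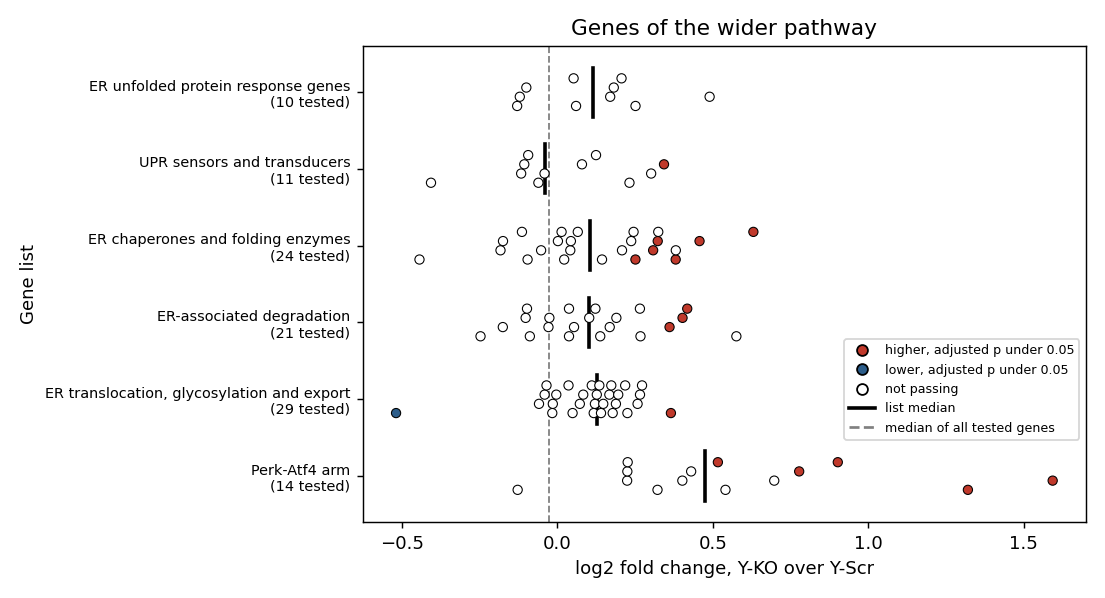
log2 fold change of Y-KO over Y-Scr for every tested gene of the 10 ER stress genes and the 5 further lists, in red where higher and in blue where lower at an adjusted p under 0.05, with a black bar at each list's median and a dashed line at the median of all tested genes. None of the 10 genes is coloured, and the Perk-Atf4 arm reaches 1.59.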

How the data were processed

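RNA-seq of CD45-negative cells from Y-KO (3) and Y-Scr (3) tumours was used. The authors deposited unnormalised gene counts. Per the file headers, these were made with featureCounts 1.5.3 on GRCm39 (Ensembl 112), with no further option on the command line, and by that version's defaults strand is not used and reads that fit several genes are left out. Per the submitters' processing notes, FastQC 0.12.1, MultiQC 1.13, Trimmomatic 0.39 and STAR 2.5.2b were used before that. Even numbers made up 80.3% to 82.3% of counts from 2 to 20 in each library, which suits read pairs counted singly, so counting error may be larger than the counts give. PCR reads are not independent molecules.

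Symbols came from an older annotation by gene ID (51880 IDs, 90.7%). All 171 list entries matched. edgeR 4.0.16 in R 4.3.3 was run with filterByExpr (minimum count 10, minimum total 15), TMM scaling and group alone in a quasi-likelihood fit, over 17837 genes. SE is the log2 fold change over the square root of F, and intervals use the t quantile at the test's degrees of freedom. CPM is on TMM-scaled library sizes, and RPKM divides it by the exon length in the count table. Alternatives were DESeq2 1.42.0, other scalings, no filter, the replicate number as a block, halved counts, summed close pairs and leaving out each library. The edgeR step was tested on simulated data that had no outlying library and held changes larger than those of the 10 genes. That simulation does not show whether differences of their size would be found here. All 10 genes passed the filter on low counts. By the naming rule, up to 4 genes of each further list with the smallest p are named. Eif2ak3, Ern2, Ddit3, Atf4, Ddit4, Cebpg, Atf3, Slc7a11, Ppp1r15a, Pdia6, Adcy3 and Tdrd9 fall outside it and were named with their values seen. Marker lists are given by their first gene, their sum or their counts of calls. The further markers named (Cdh1, the keratins, the uroplakins, Sdc1, Tnfrsf17, Mzb1, Ighm, Dcn and Col1a2) were picked with their values seen. The genes and lists were chosen with earlier results of these data known. Plots were drawn with matplotlib 3.10.9.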

Additional observations from a re-analysis of the deposited data

How the results depend on the processing

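No member was called lower in Y-KO under any of the 13 alternatives run, though the log2 fold changes of Ern1 and Dnajb9 were below 0 in all. The count of members called higher was 0 in 11 of them, 1 (Herpud1) with no filter on low counts and 6 without Y-KO replicate 3. Leaving out single libraries gave 0 to 6. Without single libraries, the count of all genes called ran from 1037 to 6393, and the counts of higher and lower genes ran from 0 to 3 and 0 to 3 for sensors, 1 to 11 and 0 to 1 for chaperones, 0 to 7 and 0 to 2 for degradation, 0 to 13 and 0 to 1 for translocation, and 4 to 12 and 0 to 1 for the Perk-Atf4 arm. With the close pairs (Y-KO replicates 1 and 2, Y-Scr replicates 2 and 3) summed, 496 genes were called, 2 of the Perk-Atf4 arm were higher and 0 of the sensors, chaperones, degradation or translocation genes passed in either direction. With library size alone, the median of all genes was -0.17, 0 sensors and 0 translocation genes were higher, 1 chaperone was higher and 2 were lower, 1 degradation gene was higher and 1 lower, and the log2 ratio of the summed level of the 10 genes was -0.017, against 0.13 with TMM.

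For the genes with the ER stress element, alternatives added after seeing the data gave 0 higher with library size alone, with the replicate block and with summed pairs, and 0 to 4 higher and 1 to 4 lower without single libraries. The log2 fold change changed sign for Hspa5 with library size alone (-0.0917) and without single libraries (-0.0214 to 0.141), for Xbp1 with library size alone (-0.0842), summed pairs (-0.0353) and without single libraries (-0.0561 to 0.226), for Creb3 with library size alone (-0.017), for Herpud1 without single libraries (-0.0039 to 0.69) and for Sdf2l1 without single libraries (-0.208 to 0.0624). The cause was not tested. Replicate numbers are shared between the groups, but deviations of same-numbered libraries were hardly correlated (-0.0084, 0.0049 and -0.014), so the numbers were not taken as pairs. With the replicate block, 2066 genes were called, 0 members, 0 sensors higher, 1 chaperone higher and 0 translocation genes higher, and Rtcb (adjusted p = 0.0573), Txndc5, Canx, Sdf2, Pdia6, Syvn1 and Kdelr1 were not called. With counts of at least 1454 per library, counting error was small beside the spread between the Y-KO libraries, which limits these comparisons.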
